A study of Homo sapiens with 2 samples.

Results

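The 293 genes described here carry symbols that begin with ZNF and a digit, the nomenclature prefix of zinc finger genes, and were chosen by level. The members were selected on the mean of the control and A4368 values, which had to be at least 3 FPKM, a level per transcript length and library size. They are 293 of the 11511 genes with values in both libraries, and of 424 ZNF symbols without a hyphen. The other 131 had a mean under 3 FPKM, and 1 joined symbol, ZNF816-ZNF321P, was left out because it contains a hyphen.

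Hep3B is an established human hepatocellular carcinoma cell line, obtained here from ATCC. The control group was 1 library of Hep3B cells without treatment, and the A4368 group was 1 library of Hep3B cells exposed to the compound A4368 at 25 µM for 24 h. Both were cultured in DMEM with serum, and A4368 is known here by its code alone. In the text, untreated and treated stand for these libraries. With 1 library per group no value has a replicate error and there is no p-value, so differences are those between 2 libraries. Depth is unknown, and in bulk RNA a change in all cells cannot be told apart from a larger change in some of them.

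Most ZNF genes encode proteins with C2H2 zinc fingers, short repeats in which a pair of cysteines and a pair of histidines hold a zinc ion so that the finger can read bases of DNA. Many of these proteins also begin with a KRAB domain, which recruits the corepressor TRIM28 and, through it, the histone methyltransferase SETDB1 and heterochromatin proteins. KRAB zinc finger proteins are best known for silencing retrotransposons, and their genes have multiplied by local duplication, so that neighbours often have similar sequences. A smaller number of ZNF proteins work elsewhere, at ribosomes, on RNA or at the mitotic spindle.

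The symbols were matched to GENCODE release 29, and the longest coding transcript of each gene was translated. At least 1 C2H2 finger (C, 2 to 4 residues, C, 12 residues, H, 3 to 5 residues, H) was found in 287 of the 293 proteins, so the name fitted the sequence for 98.0% of them. The median was 10 fingers and the highest number was 31, in ZNF91 and ZNF142. A KRAB pattern was found in 174 proteins (59.4%), of which 173 also had fingers, and a SCAN pattern, the mark of a dimerisation domain, in 13. The 6 proteins without a finger match included ZNF738, which had a KRAB pattern. The patterns miss divergent domains, so no match says only that these letters are absent.

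To show the finger repeat, its DNA is given for the 3 genes whose libraries differed by at least 1.5-fold, and for ZNF664, the most abundant member. Each run codes for the first finger with 2 residues between the cysteines and 3 between the histidines, and the capitals mark the codons of the 4 zinc-binding residues. All lie within a single coding exon of the GENCODE annotation on GRCh38, at chr19:53381312-53381374 (plus strand) for ZNF525, chr19:58416999-58417061 (plus strand) for ZNF584, chr19:55622462-55622524 (minus strand) for ZNF784 and chr12:124012157-124012219 (plus strand) for ZNF664.
ZNF525: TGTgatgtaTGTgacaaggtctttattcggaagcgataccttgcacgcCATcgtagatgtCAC
ZNF584: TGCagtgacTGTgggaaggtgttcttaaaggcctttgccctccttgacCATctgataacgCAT
ZNF784: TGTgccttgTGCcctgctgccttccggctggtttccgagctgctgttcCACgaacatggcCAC
ZNF664: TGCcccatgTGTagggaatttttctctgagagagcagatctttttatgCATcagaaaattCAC

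ZNF525 and ZNF584 also matched the KRAB pattern, and ZNF784 and ZNF664 did not. The start of the KRAB A box, the part of the domain that contacts TRIM28, is shown with the codons of the pattern's aspartate and valine and of its glutamate and tryptophan in capitals. It lies in a single coding exon at chr19:53375788-53375829 in ZNF525 and chr19:58409983-58410024 in ZNF584 (GRCh38, plus strand).
ZNF525: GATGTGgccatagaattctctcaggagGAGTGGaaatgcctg
ZNF584: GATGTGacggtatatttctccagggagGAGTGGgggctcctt

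The ZNF genes were nearly level between the libraries. Of the 293 members, 290 (98.98%) lay within 1.5-fold on the scale log2((A4368 FPKM + 1)/(control FPKM + 1)), which understates the change of low genes. ZNF784 and ZNF584 were higher with A4368 by at least 1.5-fold, which is 0.683% of the members against 0.804% of all 9823 genes that averaged 3 FPKM or more. ZNF525 was lower by at least 1.5-fold, which is 0.341% against 1.82%. ZNF525 was also the member lower by at least 2-fold, a limit passed downward by 0.387% of all genes, and no member was higher by 2-fold on this scale, as were 0.0407% of all genes.

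ZNF525, a KRAB zinc finger gene, was at 16.2 FPKM untreated and 3.90 FPKM treated, a plain ratio of 4.17-fold lower and a log2 ratio of -1.82. ZNF784, with 6 finger matches and no KRAB pattern, was at 3.46 FPKM untreated and 7.21 FPKM treated, a plain ratio of 2.09-fold higher and a log2 ratio of 0.88, which is under 2-fold on the log2(FPKM + 1) scale. ZNF584, a KRAB gene with 8 fingers, was at 4.11 and 7.06 FPKM, a plain ratio of 1.72-fold higher and a log2 ratio of 0.66. These genes lie on chromosome 19, and both higher ones started from levels close to the lower limit of the selection. With a pseudocount of 5 in place of 1 neither remained past 1.5-fold, at 0.53 for ZNF784 and 0.40 for ZNF584, while ZNF525 was at -1.26.

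**Figure D1:**
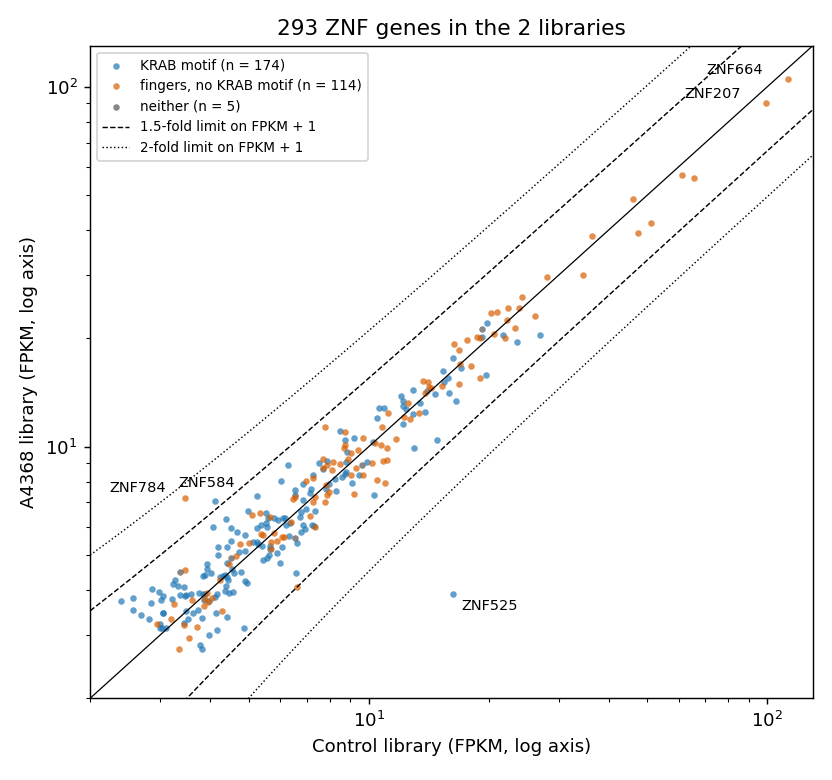
Levels of the 293 ZNF genes in the control library (x axis, FPKM, log axis) and the A4368 library (y axis, FPKM, log axis), 1 point per gene, coloured by protein class. The solid line marks equal values and the dashed and dotted lines the 1.5-fold and 2-fold limits on FPKM + 1. ZNF525, at 16.2 and 3.90 FPKM, lies below the lower 2-fold line, and ZNF784 and ZNF584 lie above the upper 1.5-fold line.

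ZNF525 stands in a group of related KRAB genes, and its values differ from those of its neighbours. In the order of coding genes, ZNF845 precedes it and ZNF765, ZNF761 and ZNF813 follow. ZNF845 was at 4.32 FPKM untreated and 4.38 FPKM treated, and ZNF765 at 3.36 and 3.87 FPKM. ZNF761 was at 8.71 and 10.4 FPKM, and ZNF813, under the limit of the selection, at 2.29 and 1.89 FPKM. None of these 4 neighbours differed by 1.5-fold.

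Of the 31-base words in the transcripts of ZNF525, 19.5% also occur in transcripts of another gene, and 5.66% occur in ZNF845, the closest gene with values in the table. The likeness is seen in finger 5 of each protein, which differ at 3 of 63 bases (95.2% identity). These lie at chr19:53381648-53381710 in ZNF525 and chr19:53351744-53351806 in ZNF845 (GRCh38, plus strand), and capitals again mark the zinc-binding codons.
ZNF525: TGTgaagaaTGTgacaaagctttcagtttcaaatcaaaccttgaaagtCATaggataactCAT
ZNF845: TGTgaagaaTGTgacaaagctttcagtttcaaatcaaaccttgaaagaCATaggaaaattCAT
The closest finger pairs with ZNF765, ZNF761 and ZNF813 each differed at 4 of 63 bases. How Cufflinks was set to assign reads that fit several genes is unknown here, and the part of this in the ZNF525 values was not tested. ZNF784 shared none of its 31-base words with another gene and ZNF584 shared 5.79%.

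Of the 3 coding genes on either side of ZNF784, all had values and lay within 1.5-fold. ZNF865, which precedes ZNF784, was at 5.90 FPKM untreated and 5.48 FPKM treated, and ZNF580, which follows, at 8.66 and 9.93 FPKM. The largest ratio near it was that of CCDC106, at 11.3 and 8.04 FPKM, in the other direction. The genes directly next to ZNF584, RNF225 and ZNF132, have no values in the table. The 4 genes beyond them, up to 3 places away, lay within 1.5-fold, among them ZNF837 at 3.45 and 4.54 FPKM, ZNF324B at 1.97 and 2.53 FPKM and ZNF324 at 3.22 and 4.14 FPKM.

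The ratios of the whole family were centred near 0. The median log2 ratio was 0.016 over the members and 0.008 over all genes, and 156 members (53.2%) were higher and 137 lower, against 51.8% higher among all genes. A rescaling that equalised the summed FPKM of the libraries, the 50 most abundant genes left aside, placed the median of all genes at 0.057 and that of the members at 0.065. On that scale 182 of the 293 members (62.1%) were higher, against 61.3% of all genes. The 10th and 90th percentiles of the member ratios were -0.23 and 0.24, and those of all genes -0.27 and 0.26.

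The members are lowly expressed genes, with a median mean level of 6.54 FPKM against 17.1 FPKM for all genes, so they were also set beside genes of their own level. Between 3 and 10 FPKM lay 214 members, of which 2 were higher by at least 1.5-fold and 0 lower. Of the 3007 genes in that range 1.56% were higher and 2.59% lower by this limit. The 10th and 90th percentiles were -0.20 and 0.28 for these members and -0.30 and 0.33 for all genes of the range. In the range of 10 to 30 FPKM, 36 of 70 members were higher, against 57.1% of the 3680 genes there. ZNF525 was the member past 1.5-fold, where 0.625% of all genes of the range were higher and 1.71% lower by this limit.

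**Figure D2:**
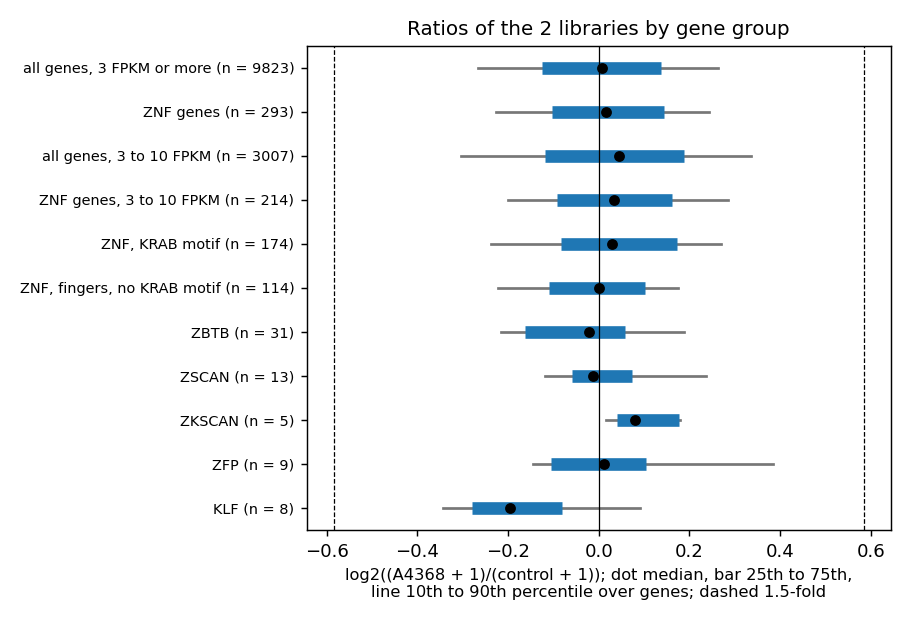
Log2 ratios of the A4368 library over the control (x axis, with 1 FPKM added to each value) by gene group (y axis). Dots are medians over genes, thick bars the 25th to 75th and thin lines the 10th to 90th percentiles over genes, and dashed lines mark 1.5-fold. The median of the ZNF genes (0.016) lies beside that of all genes (0.008), and that of the 8 KLF genes (-0.20) lies lowest.

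The most abundant ZNF genes were all of the classes without a KRAB match. ZNF664 was at 113 FPKM untreated and 105 FPKM treated. ZNF207, whose protein binds the checkpoint factor BUB3 at the mitotic spindle, was at 99.2 and 89.9 FPKM. ZNF706 was at 65.6 and 55.9 FPKM, and ZNF146, whose protein consists almost entirely of fingers, at 61.1 and 56.8 FPKM.

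Further down this order, ZNF768 was at 46.2 FPKM untreated and 49.0 FPKM treated and ZNF787 at 36.3 and 38.6 FPKM. ZNF444 was at 34.5 and 30.03 FPKM. These 3 and ZNF593 and ZNF281, described below, complete the 9 members at 30 FPKM or more. Of the 9, 7 were lower and 2 higher, also when rescaled, and the median log2 ratio was -0.14. Over all 3136 genes at that level the median was -0.039, with 40.0% higher.

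Members just inside the limit of 3 FPKM were ZNF418 at 2.56 FPKM untreated and 3.53 FPKM treated, ZNF653 at 3.35 and 2.75 FPKM and ZNF264 at 2.69 and 3.42 FPKM. Just outside it were ZNF780B at 3.01 and 2.96 FPKM, ZNF599 at 1.83 and 4.10 FPKM and ZNF628 at 2.79 and 3.12 FPKM. On the log2(FPKM + 1) scale, 3 of the 131 ZNF genes under the limit differed by at least 1.5-fold, ZNF599 among them. The others, named after their values were seen, were ZNF519 (1.71 and 3.09 FPKM) and ZNF467 (2.21 and 1.03 FPKM). That scale understates the change of low genes, and by plain ratio more of the 131 passed 1.5-fold. Examples are ZNF540 (0.460 and 1.09 FPKM), which was higher, and ZNF556 (1.22 and 0.657 FPKM), which was lower. The share among all genes under 3 FPKM was not computed.

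Chromatin and promoter factors formed the first list of members with a known role. Of 21 listed genes, 18 were members, of which 13 were lower and 5 higher with A4368, or 12 and 6 after the rescaling. Their median log2 ratio was -0.086, against 0.008 for all genes, and 0 of the 18 differed by 1.5-fold. ZNF532, with ZNF592 and ZNF687 a partner of the chromatin reader ZMYND8, was lowest in ratio at 10.98 FPKM untreated and 7.93 FPKM treated. ZNF687 had the highest ratio, at 8.74 and 10.98 FPKM, and ZNF592 was at 7.85 and 8.91 FPKM. The 3 related genes thus lay on both sides of equality.

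ZNF281, a transcription factor linked to stem cell identity, was at 47.3 FPKM untreated and 39.2 FPKM treated. ZNF143, which binds many promoters, was at 10.2 and 8.997 FPKM. Its paralog ZNF76 was at 17.0 FPKM in both. ZNF143 and ZNF281 were thus lower by less than 1.5-fold.

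Among partners of histone methyltransferases, ZNF644, which works with G9a, was at 18.1 FPKM untreated and 16.7 FPKM treated. ZNF518A was at 22.4 and 24.3 FPKM and ZNF518B, which also binds G9a, at 3.45 and 3.19 FPKM. ZNF217, amplified in breast cancer and a partner of the corepressor CtBP, was at 12.7 and 11.9 FPKM. The log2 ratios of these 4 lay between -0.10 and 0.12.

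The other chromatin and promoter factors were similarly close in both libraries. ZNF512B had 8.73 FPKM untreated and 10.1 FPKM treated, and ZNF516, a regulator of brown fat genes, 5.35 and 5.74 FPKM. ZNF24, a SCAN protein, had 23.3 and 21.4 FPKM, and ZNF131, which carries a BTB domain, 16.9 and 14.9 FPKM. ZNF148, which binds GC-rich promoters, had 7.85 and 7.35 FPKM, ZNF335 had 9.01 and 8.37 FPKM and ZNF609 had 10.7 and 10.1 FPKM. Of these 7, the first pair were higher with A4368 and the other 5 lower.

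Members that act on ribosomes, RNA and mitosis made up the second list. Of 11 listed genes 10 were members, of which 6 were higher and 4 lower, or 7 and 3 when rescaled. The median log2 ratio was 0.080 and 0 were past 1.5-fold. ZNF593, which acts in the assembly of the large ribosomal subunit, was at 51.0 FPKM untreated and 41.9 FPKM treated. ZNF622, another factor of large subunit maturation, was at 26.1 and 23.0 FPKM. Of the transcript words of ZNF593, 92.7% occur in other annotated genes, none of them matched by symbol to a gene with values. That share counts both strands and overlapping transcripts. Its level may thus not be that of a single gene, which was not tested.

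ZNF598, the ubiquitin ligase that marks collided ribosomes, was at 13.7 FPKM untreated and 15.2 FPKM treated. ZNF326, a subunit of the DBIRD complex that couples splicing to transcription, was at 28.0 and 29.7 FPKM. ZNF638, which recruits the HUSH silencing complex to unintegrated retroviral DNA, was at 24.3 and 26.1 FPKM. ZNF330, a nucleolar protein and the most abundant member without a finger match, was at 19.2 and 21.3 FPKM. All 4 were higher with A4368 by less than 1.5-fold.

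The last 3 of this list were ZNF106, an RNA-binding protein, at 14.1 FPKM untreated and 15.2 FPKM treated, ZNF830 at 9.05 and 9.61 FPKM, and ZNF346, which binds double-stranded RNA, at 6.38 and 6.18 FPKM. The partners of ZNF598 in the response to stalled ribosomes were level too. Of 14 with values, 8 were lower and 6 higher, or 6 and 8 after the rescaling, with 0 past 1.5-fold. NEMF had the largest ratio, at 9.497 and 11.01 FPKM, followed by TRIP4 at 26.6 and 23.3 FPKM, GIGYF2 at 15.2 and 17.3 FPKM and ASCC2 at 23.5 and 21.6 FPKM.

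**Figure D3:**
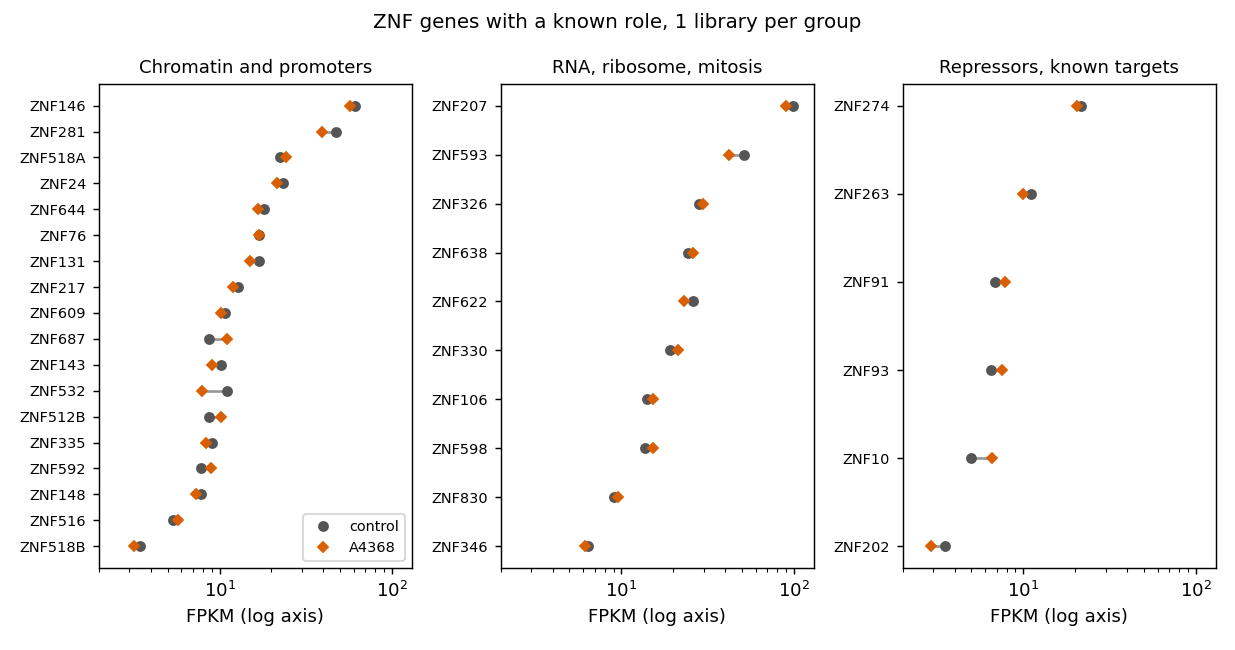
Levels of 34 members with a known role in the control (circles) and A4368 (diamonds) libraries, 1 library each (x axis, FPKM, log axis), by gene (y axis) and list. Symbols nearly overlap for most genes, and none of these 34 differed by 1.5-fold. The widest gap of the first panel is that of ZNF532, at 10.98 and 7.93 FPKM.

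Among the members, the KRAB genes were at lower levels than the other finger genes, in the FPKM values that also chose the members. The 131 ZNF genes under 3 FPKM are not part of this comparison. The 174 members with a KRAB match had a median mean level of 5.50 FPKM and a highest of 23.7 FPKM, and the 114 finger genes without a match 9.17 FPKM and 109 FPKM. The median log2 ratios were 0.028 with the KRAB match, 96 of 174 being higher, and -0.00052 without, 57 of 114 being higher. After the rescaling 112 of 174 and 67 of 114 were higher, with medians of 0.078 and 0.046. The 13 members with a SCAN match had a median of -0.052, with 5 higher, or 6 after the rescaling.

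Of 10 listed repressors with known targets, 6 were members, 3 of them higher and 3 lower with A4368. ZNF91 and ZNF93, which bind and silence primate retrotransposons of the SVA and LINE classes, were at 6.85 FPKM untreated and 7.88 FPKM treated, and at 6.54 and 7.57 FPKM. ZNF10, in which the KRAB domain was first studied as a repressor, was at 4.98 and 6.63 FPKM. All 3 were higher, by less than 1.5-fold.

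ZNF274, which brings SETDB1 to the finger-coding ends of other ZNF genes, was at 21.7 FPKM untreated and 20.4 FPKM treated. ZNF263 was at 11.1 and 9.95 FPKM and ZNF202, a repressor of lipid transport genes, at 3.54 and 2.93 FPKM. ZNF202 and ZNF263 matched the SCAN pattern and not the KRAB patterns used here. The 4 genes of this list under the limit were ZNF445, ZNF568, ZNF350 and ZNF382.

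The highest ratios of the KRAB class after ZNF584 belonged to low genes. ZNF383 was at 2.39 FPKM untreated and 3.73 FPKM treated, ZNF419 at 4.06 and 5.97 FPKM, ZNF707 at 4.38 and 6.30 FPKM and ZNF251 at 6.29 and 8.90 FPKM. After ZNF525, the lowest ratios of the class were those of ZNF551 at 4.87 and 3.14 FPKM, ZNF587B at 6.59 and 4.47 FPKM, ZNF880 at 14.9 and 10.5 FPKM and ZNF300 at 10.3 and 7.32 FPKM. These 8 genes had log2 ratios between -0.51 and 0.48, inside the 1.5-fold limit of 0.585 on either side. By plain ratio, without the added 1 FPKM, ZNF383 was 1.56-fold higher and ZNF551 1.55-fold lower. Outside the class, ZNF239 and ZNF771 were named after their values were seen. ZNF239, at 6.59 and 4.08 FPKM, had the lowest ratio of all members after ZNF525, at -0.579 just inside the limit. By plain ratio it was 1.61-fold lower. ZNF771, at 7.79 and 11.3 FPKM, had the highest after ZNF784 and ZNF584, at 0.487.

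Among members averaging 10 FPKM or more, the lowest ratios after ZNF525 and ZNF880 were -0.38 for ZNF195, at 27.0 FPKM untreated and 20.5 FPKM treated, -0.36 for ZNF140 (12.997 and 9.93 FPKM) and -0.30 for ZNF124 (19.7 and 15.8 FPKM). The highest were 0.25 for ZNF90 (10.6 and 12.8 FPKM), 0.22 for ZNF358 (16.4 and 19.2 FPKM), 0.21 for ZNF718 (10.9 and 12.8 FPKM) and 0.21 for ZNF410 (20.3 and 23.6 FPKM). ZNF268 followed with 0.19 (12.04 and 13.8 FPKM). ZNF90, ZNF358 and ZNF410 share 30.95%, 31.7% and 43.9% of their transcript words with other genes. At this level ZNF525 was thus far from the next lowest member.

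The corepressor machinery on which KRAB proteins act was present in both libraries. TRIM28 itself was at 220 FPKM untreated and 232 FPKM treated, and SETDB1, which writes the repressive H3K9 methyl mark, at 15.2 and 13.2 FPKM. Of 31 corepressor and heterochromatin genes with values, 21 were lower and 10 higher, or 17 and 14 after the rescaling, and 0 differed by 1.5-fold. Their median log2 ratio was -0.097, or -0.048 after the rescaling, against 0.008 and 0.057 for all genes. The median level of these 31 genes was 31.7 FPKM, above the 17.1 FPKM of all genes. Over the 3136 genes at 30 FPKM or more, the median log2 ratio before the rescaling was -0.039, with 40.0% higher.

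The largest ratio of that list was the one of DNMT3A, a de novo DNA methyltransferase, at 23.2 FPKM untreated and 17.8 FPKM treated. CHD3, a NuRD remodeller, was at 10.5 and 8.09 FPKM. WIZ, which partners ZNF644 at G9a, was at 24.7 and 20.8 FPKM, and the H3K9 methyltransferase gene SUV39H2 at 13.6 and 11.7 FPKM. These 4 were lower with A4368.

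Proteins with more fingers had lower levels, a description in the FPKM values that also chose the members. Across the 293 members, Spearman's correlation of finger number with the mean level was -0.24, and with the log2 ratio 0.10. These correlations run across genes of the same 2 libraries, which are not independent replicates, and are given as a description. KRAB members, which were at lower levels, had a median of 12 fingers and the finger genes without a KRAB match 7.5. The classes were not separated here. The 26 members with 1 to 3 fingers had a median level of 11.1 FPKM, the 54 with 4 to 7 had 8.02 FPKM, the 111 with 8 to 12 had 6.63 FPKM and the 96 with 13 or more had 5.48 FPKM.

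The proteins with the most fingers were ZNF91, given above, ZNF142 with 31 fingers at 7.24 FPKM untreated and 7.01 FPKM treated, and ZNF646 with 30 at 5.02 and 5.41 FPKM. Of those without a finger match, ZNF720 was at 9.62 and 8.90 FPKM, ZNF738 at 6.85 and 6.06 FPKM, ZNF839 at 6.52 and 5.57 FPKM and ZNF503 at 4.51 and 4.92 FPKM. ZNF703, named after its values were seen, was at 3.37 and 4.48 FPKM, with the largest ratio of the 6 at 0.33. Neither end of the range held a member that differed by 1.5-fold.

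**Figure D4:**
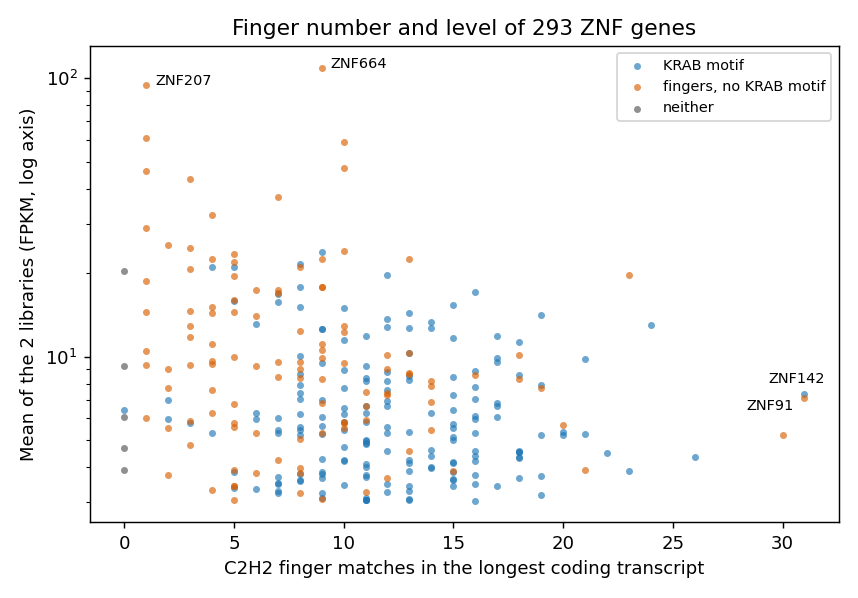
Number of C2H2 finger matches in the longest coding transcript (x axis) and mean of the 2 libraries (y axis, FPKM, log axis) for the 293 ZNF genes, 1 point per gene, coloured by protein class. The members above 30 FPKM have 10 fingers or fewer and no KRAB match, and ZNF91 and ZNF142 have 31 fingers at about 7 FPKM.

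The transcripts and promoters of the KRAB class differed in base composition from those of other genes. The median GC content of the transcripts was 42.4% for KRAB members, 51.6% for finger genes without a match and 48.7% for all genes. The last value rests on the 9797 that could be matched of the 9823 genes averaging 3 FPKM or more. In the window from 250 bases before to 50 after the start in RefSeq (GRCh38.p14), KRAB members had a median of 20 CpG dinucleotides, the other finger genes 28 and all genes 27. These medians rest on 152, 102 and 7813 matched promoters. Spearman's correlation of the log2 ratio with transcript GC content was -0.011 across the members and -0.0043 across all genes.

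Chromosome 19 held 145 of the 293 members (49.5%) in GENCODE, followed by chromosome 16 with 24 and chromosome 7 with 21. Of the chromosome 19 members 118 had a KRAB match. Their 145 genes had a median log2 ratio of 0.037 with 81 higher, and the 148 members elsewhere 0.0045 with 75 higher, or 91 each after the rescaling. All 3 members past 1.5-fold are on chromosome 19, where 142 of 145 were within the limit.

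In the order of coding genes, 145 members stood next to at least 1 other member, in 47 runs of 2 to 9 genes. Of the 31 runs that were pairs, 17 had both genes in the same direction (11 higher, 6 lower) and 14 had them in opposite directions. On the rescaled values 20 pairs had the same direction, 16 of them higher. Of the 16 runs with at least 3 genes, 0 had all members higher or all lower, and on the rescaled values 1 had all higher.

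The longest run, of 9 KRAB genes on chromosome 19, had 6 lower and 3 higher members, with a median log2 ratio of -0.17, and the split was the same after the rescaling. It contained ZNF587B, described above, ZNF814 at 4.42 FPKM untreated and 3.36 FPKM treated, and ZNF587 at 9.07 and 7.93 FPKM. ZNF586 was at 8.30 and 7.55 FPKM, ZNF552 at 6.76 and 5.81 FPKM and ZNF256 at 6.92 and 5.92 FPKM. The higher ones were ZNF776 at 5.91 and 6.24 FPKM, ZNF417 at 4.41 and 4.76 FPKM and ZNF418. Of the transcript words of ZNF587, 32.4% occur in ZNF814, and of those of ZNF417, 39.9% occur in ZNF587. The part of this shared sequence in their values was not tested.

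The next run held 8 KRAB genes of chromosome 19, 4 higher and 4 lower in alternation. ZNF506 was at 6.02 FPKM untreated and 8.05 FPKM treated, ZNF253 at 8.56 and 8.22 FPKM, ZNF93 as above and ZNF682 at 4.57 and 3.94 FPKM. ZNF90 was as above, ZNF486 at 4.13 and 3.46 FPKM, ZNF737 at 3.93 and 4.58 FPKM and ZNF626 at 7.31 and 6.02 FPKM. The log2 ratios ran from -0.24 for ZNF626 to 0.37 for ZNF506.

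**Figure D5:**
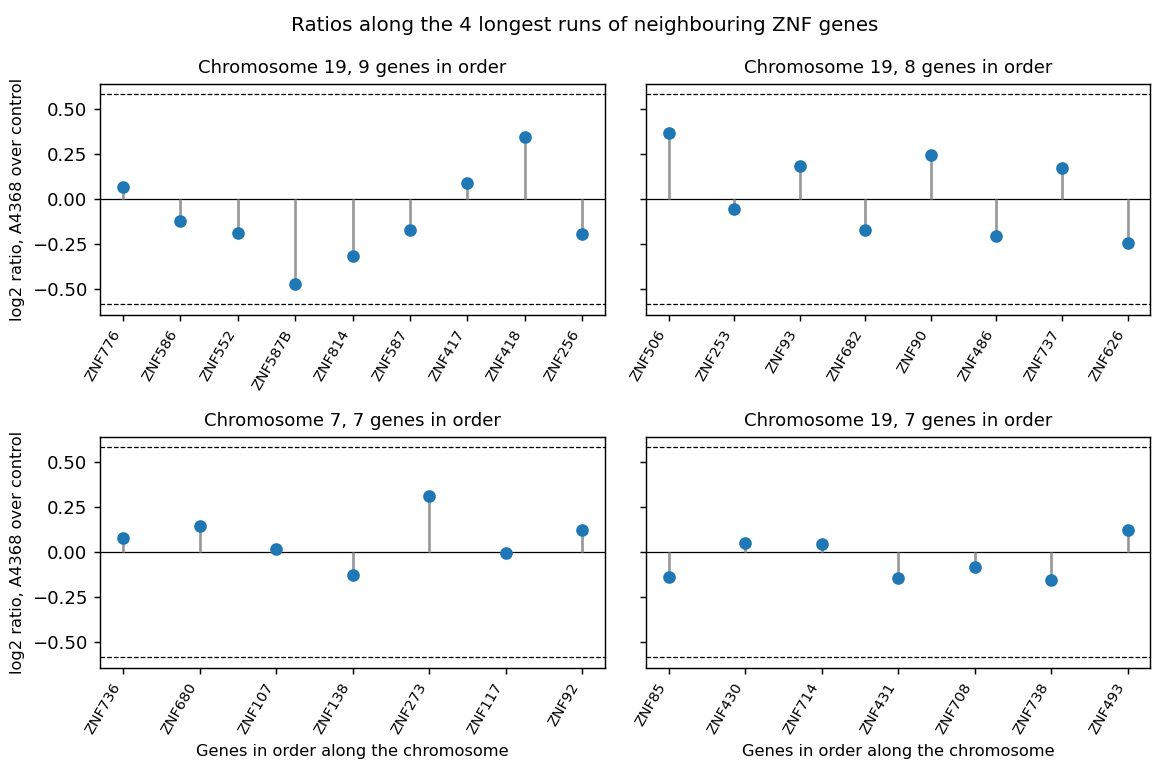
Log2 ratios of A4368 over control (y axis, with 1 FPKM added to each value) for the genes of the 4 longest runs of neighbouring members, in their order along the chromosome (x axis). Dashed lines mark 1.5-fold. Each run has genes on both sides of 0, and the lowest is ZNF587B at -0.47.

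Other families of finger proteins differed in their medians. Of 31 ZBTB genes averaging 3 FPKM or more, 13 were higher and 18 lower, or 19 and 12 after the rescaling, and the median log2 ratio was -0.021, or 0.022 rescaled. The 13 ZSCAN genes had a median of -0.012, which was 0.036 after the rescaling, the 9 ZFP genes 0.012 and the 5 ZKSCAN genes 0.080, with 4 higher, or 5 rescaled. The 8 KLF genes, which encode short 3-finger factors that bind GC-rich promoters, had a median of -0.20 with 6 lower, also after the rescaling. None of these 66 genes differed by 1.5-fold.

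Hepatocyte genes were present in both libraries. All 9 hepatocyte markers had values, from 62.5 FPKM for TTR to 9183 FPKM for ALB in the control. Of 12 markers of endothelial cells, leukocytes and fibroblasts, CD68 (29.98 FPKM untreated, 27.9 FPKM treated) and CD14 (2.50 and 2.46 FPKM) had values.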

How the data were processed

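Total RNA of 1 control and 1 A4368 library was sequenced. The authors deposited 1 table of gene symbols with a value per library, with no unit in its header. The deposited values were read as FPKM because Cufflinks, which writes that unit, appears in the submitters' processing notes. The notes also name Bowtie2 2.2.3, TopHat2 2.0.12 and hg19. For the annotation and any filter on low values: not given in the sources used here. Of 24302 lines, 11511 held both values. Depth is unknown.

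The table was used as deposited. The ratio was log2((A4368 + 1)/(control + 1)), and limits of 1.5-fold and 2-fold described its size. With 1 library per group there was no test. The members, gene lists and limits were chosen with earlier results of these data known, and the KRAB patterns were set while reading the protein sequences. The KRAB patterns were D or E, then V, L, I, M or T, any residue, a hydrophobic residue, any residue, F, L or V, 3 residues, E, then W, L or F, 2 residues and L or M, or the later stretch LYRDVM with variants. The SCAN pattern was EQF, 2 residues, I, V or L, then LP.

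Proteins were translated from GENCODE, where RefSeq proteins had been planned. Transcripts, order and coordinates came from GENCODE release 29 (GRCh38) and promoters from RefSeq (GRCh38.p14), matched by symbol, for 293 of 293 and 257 of 293 members. No coordinates were taken from hg19. Sharing was measured as the percentage of 31-base words of a gene, on either strand, that occur in another gene's transcripts, overlapping and joined transcripts included.

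Named genes were those past 1.5-fold, the 10 of highest mean, the role lists, the 4 largest ratios of each partner list with TRIM28 and SETDB1, the 3 symbols on either side of the limit, the extremes of finger number, the 2 longest runs, and the 5 highest and lowest ratios of KRAB members and of members at 10 FPKM or more. The alternatives were other pseudocounts, filters and scalings, leaving out genes that share 50% of their sequence, and a correction for GC content and length. The procedure was run on simulated data with planted changes well above the limits and less spread than the ratios here. It therefore checks the code and does not measure accuracy in these data. Python 3.11.15, numpy 2.4.6, pandas 2.3.3, scipy 1.17.1 and statsmodels 0.14.6 were used.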

Additional observations from a re-analysis of the deposited data

How the results depend on the processing

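The counts past a limit rest on few genes and follow the treatment of low values. With a pseudocount of 0.1, 3 members were lower by 1.5-fold and 1 higher by 2-fold, and with a pseudocount of 5, 0 were higher by 1.5-fold. Including ZNF genes that averaged 1 FPKM or more gave 4 higher and 2 lower by 1.5-fold, and all 424 ZNF genes gave 4 and 2, with 236 higher in all. Of members averaging 5 FPKM or more, 102 of 203 were higher. Equalising the summed FPKM, the 50 most abundant genes left aside, gave 2 lower by 1.5-fold, 1 higher by 2-fold and medians of 0.065 for the members and 0.078 for KRAB members. This rescaling moved the median of all genes by 0.049. The largest ratios moved away from 0 in both directions, ZNF525 from -1.82 to -1.90 and ZNF784 from 0.88 to 1.02. The counts past a limit on that scale are thus not those of a shift between the libraries alone. The part of the added 1 FPKM in them was not tested. The other 61 values for counts and medians stayed within 1.5 times the count or within the interval of the median. With 1 library per group that interval does not measure replicate error. Among the 61 were those without the 10 members that share 50% of their sequence and those corrected for GC content and length. ZNF525 was lower by 2-fold under the 5 alternatives that recompute its ratio, between -2.03 and -1.26, and the other 4 change only which genes are included. The KRAB patterns without the second pattern were chosen after the data were seen. No paired analysis was possible because each group has 1 library.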
